A study of Mus musculus with 4 samples.

Results

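The genes that build the nuclear pore and carry cargo through it were compared between infarcted mouse hearts with and without a reprogramming transgene. Members were taken by gene symbol alone: symbols beginning with Nup, Kpna, Kpnb, Ipo, Xpo, Tnpo or Ranbp followed by a number, Xpot, and the genes Ran, Rangap1 and Rcc1. The array's annotation held 51 such genes, each with 1 probe, among 19505 named genes and 22206 probes. A probe here is a set of short oligonucleotides that the Clariom S Mouse array summarizes to 1 log2 value per transcript.

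RNA came from the whole hearts of 4 male mice, 2 per group, collected 3 months after the left coronary artery had been tied off at 8 weeks of age. The control group, Ctrl-MI, had the genotype Tcf21iCre/Tomato, and the transgenic group, TTg-MI, the genotype Tcf21iCre/Tomato/MGTH2A. Both groups thus carried Tcf21iCre, a Cre recombinase driven from the fibroblast gene Tcf21, together with the Tomato reporter, and both had an infarct. The name MGTH2A stands for a joined construct of Mef2c, Gata4, Tbx5 and Hand2, which are factors used to turn fibroblasts into cardiomyocyte-like cells. The RNA, in contrast, came from every cell of the heart. Mice whose ejection fraction was above 45% at 2 days had been left out of the study, per the labels. The design text calls the hearts of a group independent biological replicates.

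The nuclear pore is a ring-shaped channel in the nuclear envelope, made of scaffold nucleoporins that form its frame and of nucleoporins with phenylalanine-glycine repeats that fill its channel. Importins and exportins carry proteins and RNAs through it. The small GTPase Ran, loaded with GTP in the nucleus by Rcc1 and made to hydrolyse it in the cytoplasm by Rangap1, releases cargo from importins and locks it onto exportins. Importin alpha proteins are adaptors that read the classical nuclear localization signal, which many transcription factors carry, and hand their cargo to the carrier importin beta, the product of Kpnb1.

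The array medians lay between 6.55 and 6.62 log2 units and the lower quartiles between 5.41 and 5.48. Array correlations across probes ran from 0.977 to 0.991. The 5 cardiomyocyte markers gave a summed level of 21.50 to 21.70 log2 units in Ctrl-MI and 21.71 to 21.73 in TTg-MI, near the top of the array's scale, where Atp2a2, Tnnt2, Myh6 and Actn2 hide any smaller marker. Means were higher in TTg-MI for all 5, and 3 did not overlap, where 19.4% of all probes were higher without overlap. Actn2 and Atp2a2 differed by 0.006 and 0.003 at this end of the scale, so the counts say little. Ryr2, the calcium release channel of the sarcoplasmic reticulum, read 15.09 and 15.97 in Ctrl-MI and 16.24 and 16.60 in TTg-MI, a difference of 0.89 (SE 0.32, unadjusted p = 0.0353, adjusted p = 0.588 in limma). Ctrl-MI replicate 2 stood apart in atrial muscle genes: Myl7, an atrial myosin light chain, read 5.61 there against 10.44 on Ctrl-MI replicate 1. When arrays were left out one at a time, 31 of the 51 members changed the sign of their difference at least once. Values without an array are given below for most of the members described array by array. In tissue RNA, fewer cells of a type and less RNA per cell cannot be told apart.

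Kpna2, which encodes the importin alpha adaptor best known from dividing and embryonic cells, was the member with the largest difference between the groups, and the remaining 50 members sat close together. Kpna2 read 10.17 and 10.51 on the Ctrl-MI arrays and 11.64 and 12.04 on the TTg-MI arrays. Both TTg-MI hearts lay above both Ctrl-MI hearts, and the gap of 1.13 log2 units between the nearest arrays of the groups was larger than the gaps within them, 0.34 in Ctrl-MI and 0.40 in TTg-MI. The group means were 10.34 ± 0.24 and 11.84 ± 0.28 (log2, SD, n = 2 each), a difference of 1.50 (SE 0.21, 95% interval 0.96 to 2.04), or 2.83-fold (1.95 to 4.10). Its unadjusted limma p of 5.95e-04 was the 21st smallest of all probes, but the Benjamini-Hochberg adjusted p over all probes was 0.530, which does not pass the threshold of 0.05. That Kpna2 was higher in TTg-MI was already known from earlier results of these same arrays, so these values are no independent finding.

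Leaving out single arrays moved the Kpna2 difference between 1.30 and 1.70. Without Ctrl-MI replicate 2 its adjusted p in limma was 0.0450, past the threshold, in a fit that called 332 of all probes (1.50%). In the other 3 fits of this kind the adjusted p ran from 0.681 to 1. With 2 arrays against 2, the smallest two-sided p of an exact permutation test is 0.333. RefSeq also lists pseudogenes of Kpna2 and Ranbp2, and whether the probes of these genes read them was not analysed here.

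The promoter of Kpna2 is shown because this gene carried the one large difference. The stretch is the 250 bases before the annotated transcript start, chr11:106999526-106999775 on the minus strand of GRCm38.p6, from RefSeq. Capitals mark a CHR element, read here as TTTGAA on either strand and present on the opposite strand, and a CCAAT box, both known from promoters of cell-cycle genes.
Kpna2: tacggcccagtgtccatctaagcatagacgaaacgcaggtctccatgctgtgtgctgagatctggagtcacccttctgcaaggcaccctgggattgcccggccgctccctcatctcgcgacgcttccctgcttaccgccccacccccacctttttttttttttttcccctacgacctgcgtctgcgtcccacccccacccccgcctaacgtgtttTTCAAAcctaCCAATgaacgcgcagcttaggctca

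The CHR element lay 35 to 30 bases before the start and the CCAAT box 25 to 21 bases before it, without overlap. Of 32851 RefSeq promoter windows of this length, 33.8% held CCAAT and 16.0% held TTTGAA on either strand. Motifs of the transgene's factors were searched on both strands in the same window: GATAA for GATA factors, AGGTGT for T-box factors, CANNTG (the E-box) for bHLH factors such as Hand2, and the MEF2 motif by its usual consensus. The Kpna2 window held 0 matches to each of these 4. They occurred in 22.6%, 11.8%, 66.2% and 2.92% of all windows. For 41 of the 51 members the table gave 48 windows, of which 20 held CCAAT, 9 TTTGAA, 3 GATAA, 1 AGGTGT, 19 an E-box and 1 the MEF2 motif. These matches describe letters in the sequence and show no binding.

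The other importin alpha genes stayed within 0.34 log2 units of their Ctrl-MI means. Kpna6 read 10.23 and 10.72 in Ctrl-MI and 10.48 and 10.76 in TTg-MI, and Kpna1 differed by 0.002 (SE 0.19). Kpna3 read 10.46 and 11.19 in Ctrl-MI and 10.47 and 10.51 in TTg-MI, a difference of -0.34 (SE 0.27) that was 0.03 without the high Ctrl-MI replicate 2 and -0.70 without the other control heart. Kpna4 differed by -0.20 (SE 0.20). All 4 had overlapping arrays, as did 13738 of all 22206 probes. Kpna7, an importin alpha of oocytes and early embryos, never reached the lower quartile of its array and was not shown to be above background.

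Taken within each array, Kpna2 minus the mean of Kpna1, Kpna3, Kpna4 and Kpna6 was 0.05 and -0.05 in Ctrl-MI and 1.37 and 1.82 in TTg-MI, with the Ctrl-MI mean set to 0. The difference was 1.60, or 3.03-fold in the ratio of Kpna2 to these genes. The exact two-sided permutation p was 0.333, the smallest this design allows.

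**Figure D1:**
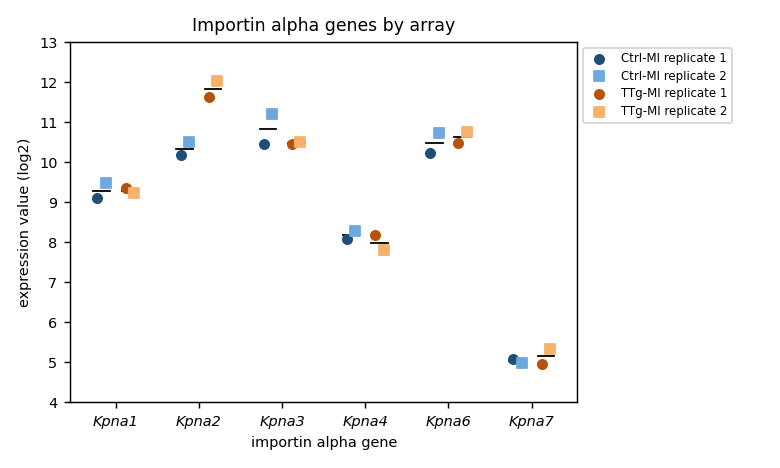
Log2 expression values (vertical axis) of the 6 importin alpha genes (horizontal axis) on each array, with Ctrl-MI in blue, TTg-MI in orange, circles for replicate 1, squares for replicate 2 and bars for group means. Levels of different genes come from different probes and cannot be compared. Kpna2 read 10.17 and 10.51 in Ctrl-MI against 11.64 and 12.04 in TTg-MI. The arrays of the other 5 genes overlapped, as did those of 13738 of all 22206 probes.

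Over the whole set, 0 of 51 members passed limma after Benjamini-Hochberg adjustment, where 0.00450% of all probes did. At an unadjusted p under 0.05, 1 member, Kpna2, was higher against 3.18% of all probes, and 0 members were lower against 5.07%. The median log2 difference was -0.004 over the members and 0.011 over all probes. Group means were higher in TTg-MI for 25 members and lower for 26. The groups did not overlap for 9 members with the transgenic hearts on top, against 19.4% of all probes, and for 4 with the control hearts on top, against 18.7%. These shares are near or under those of all probes, so they are no result about the set.

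The absolute difference was under 0.5 log2 units for 49 of 51 members (96.1%) and for 89.9% of all probes. The exceptions were Kpna2 and Ranbp6. The 95% limma interval lay inside -1 to 1, the range within a 2-fold change, for 47 members (92.2%) and 86.5% of all probes. It reached past that range for Kpna2, Ranbp6, Ipo9 and Xpo7. Standard errors of the members ran from 0.15 to 0.32.

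**Figure D2:**
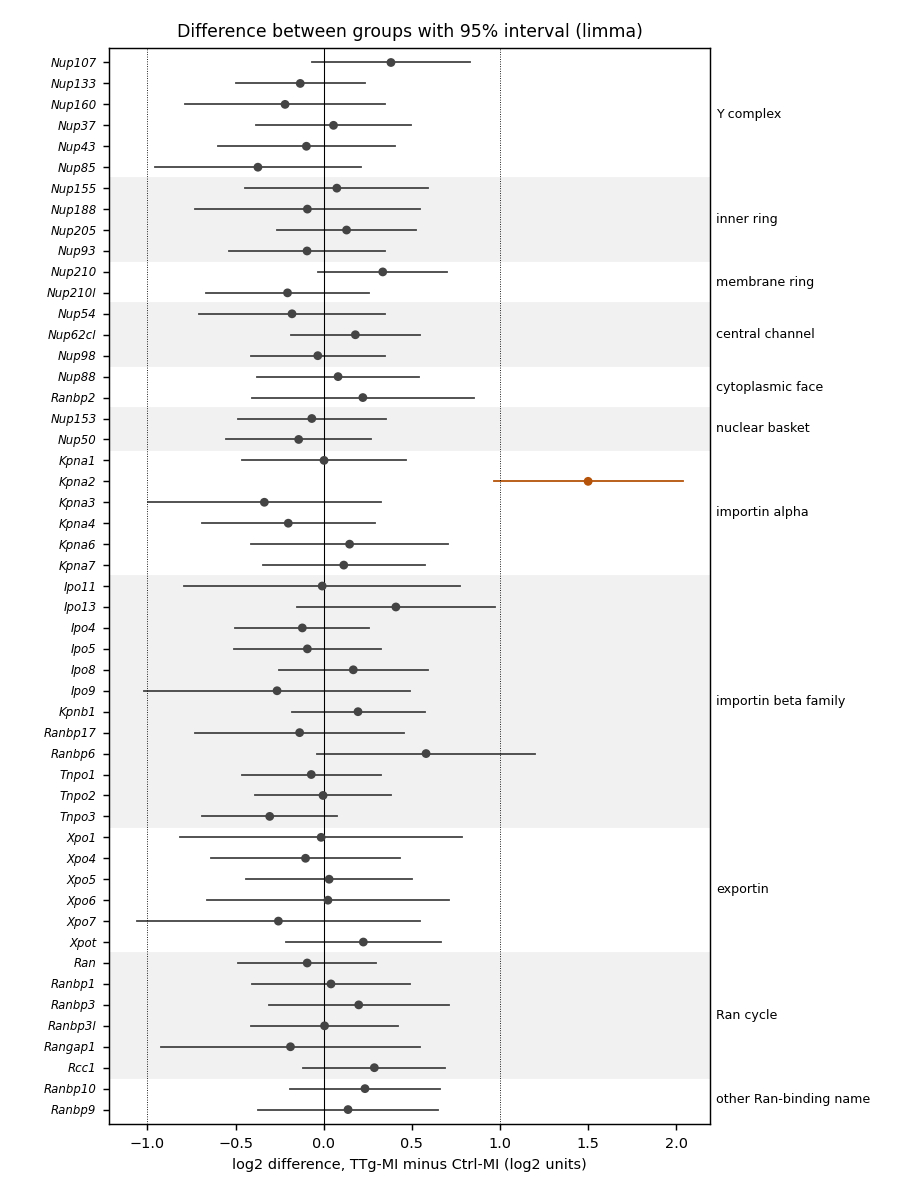
Log2 difference between the group means, TTg-MI minus Ctrl-MI (horizontal axis), with its 95% limma interval for the 51 members, grouped by role. Dotted lines mark a 2-fold change in each direction, and orange marks an unadjusted p under 0.05, which Kpna2 alone reached. The intervals of 47 members lie between the dotted lines.

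**Figure D3:**
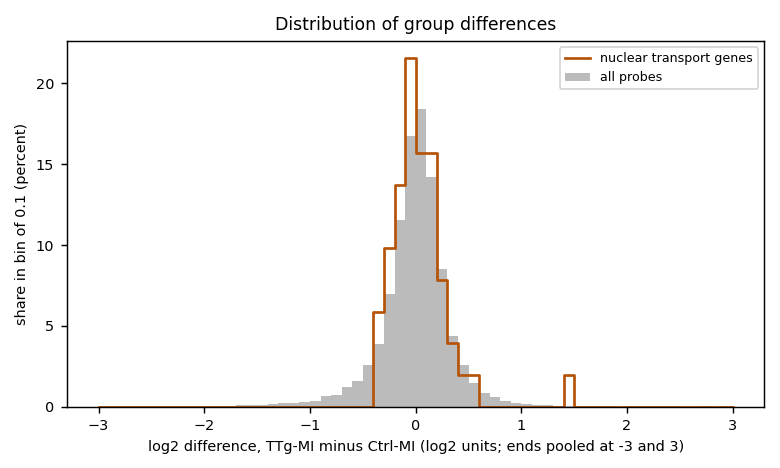
Share of genes in percent (vertical axis) by log2 difference between groups in bins of 0.1 (horizontal axis), for all probes (grey bars) and the 51 members (orange line). Apart from Kpna2 at 1.50, the members lie between -0.37 and 0.58.

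Importin beta family receptors, which bind cargo directly or through importin alpha, were measured for 12 genes, with a median difference of -0.04. Kpnb1, the partner of importin alpha, read 12.24 and 12.34 in Ctrl-MI and 12.44 and 12.52 in TTg-MI. The groups did not overlap, but the difference was 0.19 (SE 0.15, interval -0.18 to 0.57). The upper bound for Kpnb1 thus lay under the lower bound for Kpna2, 0.96. Kpna2 has the largest difference of the set and was known beforehand to be higher, so this is no test of one gene against the other.

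Ranbp6, a relative of the ribosomal protein importin Ipo5, read 6.86 and 7.49 in Ctrl-MI and 7.64 and 7.86 in TTg-MI. Its arrays did not overlap, but the gap of 0.63 within Ctrl-MI was larger than the group difference of 0.58 (SE 0.25, unadjusted p = 0.0611, adjusted p = 0.619 in limma). The Ranbp6 difference was 0.27 once Ctrl-MI replicate 1 was left out, and 0.90 once Ctrl-MI replicate 2 was. Ipo13, which carries cargo in both directions, read 6.65 and 6.82 in Ctrl-MI and 6.87 and 7.42 in TTg-MI, where replicate 2 alone was high. Its difference of 0.41 (SE 0.23) was 0.14 once the high array was left out and 0.68 once TTg-MI replicate 1 was.

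Tnpo3, the importin of serine/arginine-rich splicing factors, was the member nearest to the threshold on the lower side. It read 9.08 and 9.21 in Ctrl-MI and 8.80 and 8.89 in TTg-MI, a difference of -0.31 (SE 0.15, unadjusted p = 0.0974, adjusted p = 0.671 in limma). Ipo4, an importin of histones, read 7.96 and 8.10 in Ctrl-MI and 7.92 and 7.89 in TTg-MI, a difference of -0.12 (SE 0.15) that was -0.19 without Ctrl-MI replicate 1 and -0.05 without the other control heart. The transportins Tnpo1, the receptor of many RNA-binding proteins, and Tnpo2 differed by -0.07 (SE 0.16) and -0.004 (SE 0.16). Ipo5 differed by -0.09 (SE 0.17), Ipo8 by 0.17 (SE 0.17) and Ipo11 by -0.01 (SE 0.31).

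Ipo9, which carries histones H2A and H2B, read 9.27 on Ctrl-MI replicate 1 and between 8.40 and 8.64 on the 3 other arrays. Its difference of -0.26 (SE 0.30) was 0.17 once that array was left out and -0.70 without Ctrl-MI replicate 2. Ranbp17 lay at or above the lower quartile on 1 array alone, Ctrl-MI replicate 1, at 5.65.

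The 6 exportin genes had a median difference of 0.005, and the arrays of all 6 overlapped. Those of 13738 of all 22206 probes did too, so for 6 genes this says little. Xpo1, the receptor of proteins with leucine-rich export signals, read 9.63 and 10.58 in Ctrl-MI and 10.12 and 10.05 in TTg-MI. The Ctrl-MI arrays bracketed the TTg-MI arrays, and the difference was -0.01 (SE 0.32, interval -0.81 to 0.79). It was -0.49 once Ctrl-MI replicate 1 was left out and 0.46 once Ctrl-MI replicate 2 was, so these arrays do not settle its direction.

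Xpo7, an exportin of broad cargo known from red cell maturation, read 8.50 and 8.68 in Ctrl-MI and 8.80 and 7.86 in TTg-MI. The difference of -0.26 (SE 0.32) was 0.21 without TTg-MI replicate 2 and -0.73 without the other TTg-MI heart. The tRNA exportin Xpot differed by 0.22 (SE 0.18) and the microRNA precursor exportin Xpo5 by 0.03 (SE 0.19). Xpo4 differed by -0.10 (SE 0.21). Xpo6, the exportin of actin, differed by 0.02 (SE 0.28) with TTg-MI arrays at 9.48 and 10.26, and by 0.41 or -0.37 when the lower or the higher of these was left out.

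Of the genes of the Ran cycle, Ran itself read 11.37 and 11.51 in Ctrl-MI and 11.29 and 11.41 in TTg-MI. The arrays overlapped, with a difference of -0.09 (SE 0.16, interval -0.48 to 0.30) that ran from -0.16 without Ctrl-MI replicate 1 to -0.02 without Ctrl-MI replicate 2. Rcc1, the exchange factor that loads Ran with GTP on chromatin, read 6.98 and 7.21 in Ctrl-MI and 7.39 and 7.37 in TTg-MI. Its groups did not overlap, but the difference of 0.29 (SE 0.16) had an unadjusted limma p of 0.130, and it was 0.17 without Ctrl-MI replicate 1.

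Rangap1, which switches Ran off at the cytoplasmic face, read 7.73 and 7.61 in Ctrl-MI and 7.90 and 7.06 in TTg-MI. The TTg-MI arrays lay on both sides of the Ctrl-MI arrays, and the difference of -0.19 (SE 0.29) was 0.23 without TTg-MI replicate 2 and -0.61 without the other heart of that group. Ranbp1, a cofactor of Rangap1, differed by 0.04 (SE 0.18) and Ranbp3, a cofactor of Xpo1, by 0.20 (SE 0.20). Ranbp3l lay near the lower quartile on every array. Ranbp9 and Ranbp10 carry the family name but are known as scaffolds of a ubiquitin ligase complex. Ranbp10 read 8.07 and 7.91 in Ctrl-MI and 8.10 and 8.35 in TTg-MI, a difference of 0.23 (SE 0.17) that was 0.11 without TTg-MI replicate 2 and 0.36 without the other transgenic heart. Ranbp9 differed by 0.14 (SE 0.20).

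The 19 nucleoporin genes, counting Ranbp2, had a median difference of -0.07 and a range of -0.37 to 0.38. Of them 14 had overlapping arrays, as did 13738 of all 22206 probes, so this count is no result about the class. In the Y complex, the scaffold of the outer rings, Nup107 read 7.22 and 7.37 in Ctrl-MI and 7.52 and 7.84 in TTg-MI. This difference of 0.38 (SE 0.18, unadjusted p = 0.0823, adjusted p = 0.647 in limma) was the highest among nucleoporins and was 0.22 without TTg-MI replicate 2. Its complex partner Nup133 had a lower mean in TTg-MI and little spread within groups, with Ctrl-MI arrays of 7.39 and 7.40 against TTg-MI arrays of 7.27 and 7.26, a difference of -0.13 (SE 0.15). Nup85 differed by -0.37 (SE 0.23), and by -0.10 without TTg-MI replicate 2, which read low at 6.06. Nup160 differed by -0.22 (SE 0.23), and by 0.07 without Ctrl-MI replicate 2, which read high at 7.75. Nup37 and Nup43 differed by 0.06 (SE 0.18) and -0.10 (SE 0.20). Of the 6 measured genes of this complex, 2 thus had a higher mean in TTg-MI and 4 a lower one.

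In the inner ring, Nup205 differed by 0.13 (SE 0.16), with 6.86 and 6.99 in Ctrl-MI and 7.13 and 6.97 in TTg-MI. This was 0.05 once TTg-MI replicate 1 was left out and 0.21 once TTg-MI replicate 2 was. Nup93, Nup155 and Nup188 differed by -0.09 (SE 0.18), 0.07 (SE 0.21) and -0.09 (SE 0.26). Nup210, a membrane-spanning nucleoporin known for a role in muscle cell differentiation, read 6.470 and 6.467 in Ctrl-MI and 6.83 and 6.78 in TTg-MI. Its difference of 0.33 (SE 0.15, unadjusted p = 0.0666, adjusted p = 0.622 in limma) was much larger than its gaps within groups, and it lay between 0.31 and 0.36 as single arrays were left out. Its germline relative Nup210l stayed below the lower quartile throughout, with Ctrl-MI arrays of 5.16 and 5.13 and TTg-MI arrays of 4.75 and 5.12, and gets no difference.

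Nup54, part of the central channel, read 8.80 and 9.01 in Ctrl-MI and 8.49 and 8.95 in TTg-MI. Its difference of -0.18 (SE 0.21) was 0.05 once TTg-MI replicate 1 was left out and -0.41 once TTg-MI replicate 2 was. It was -0.08 without Ctrl-MI replicate 2. Nup98, a channel nucleoporin that also binds chromatin, differed by -0.03 (SE 0.15), and Nup62cl never reached the lower quartile. At the cytoplasmic face, Ranbp2, which anchors Rangap1 at the pore, read 9.77 and 10.33 in Ctrl-MI and 10.07 and 10.47 in TTg-MI. Its difference of 0.22 (SE 0.25) was -0.05 without Ctrl-MI replicate 1 and 0.50 without the other control heart, and that of Nup88 was 0.08 (SE 0.18). In the nuclear basket, Nup50, which helps to free importin alpha from its cargo, read 9.46 and 9.69 in Ctrl-MI and 9.39 and 9.48 in TTg-MI, a difference of -0.14 (SE 0.16) that ran from -0.26 without Ctrl-MI replicate 1 to -0.03 without Ctrl-MI replicate 2. Nup153 differed by -0.07 (SE 0.17).

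**Figure D4:**
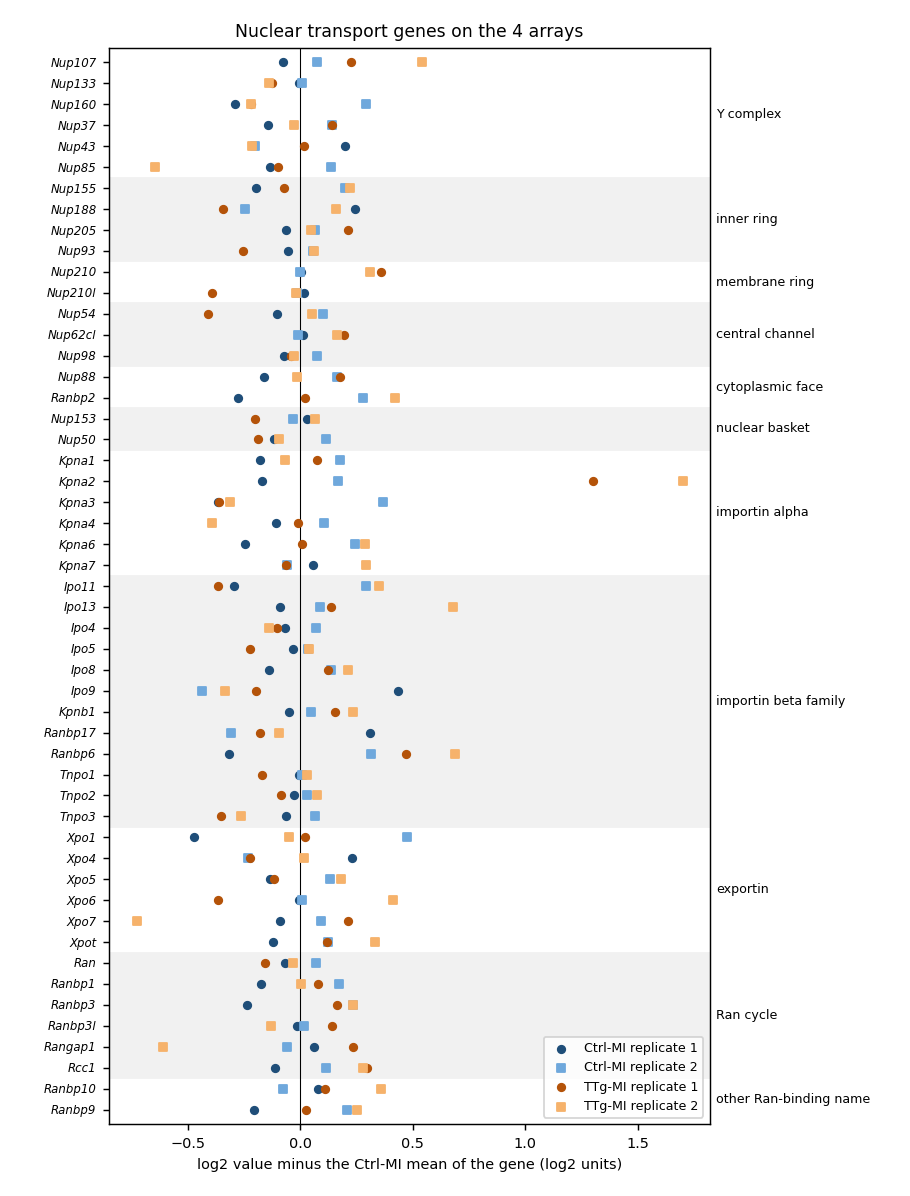
Log2 value of each member minus its Ctrl-MI mean (horizontal axis) on the 4 arrays, grouped by role, with Ctrl-MI in blue, TTg-MI in orange, circles for replicate 1 and squares for replicate 2. Kpna2 stands at 1.30 and 1.70 in TTg-MI, and for most other members points of both groups mix.

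The members also differed between hearts of 1 group. They were higher on Ctrl-MI replicate 2 than on Ctrl-MI replicate 1 for 39 of 51 genes (76.5%), with a median gap of 0.15 log2 units, whereas 47.3% of all probes were higher, with a median gap of -0.02. By class, 20 of 24 importin and exportin genes and 13 of 19 nucleoporins were higher on Ctrl-MI replicate 2. Xpo1 had the widest positive gap at 0.95, followed by Kpna3 at 0.74, and Ipo9 the widest negative gap at -0.87. Between the TTg-MI hearts, replicate 2 was higher for 32 of 51 members (62.7%), against 50% of all probes. For 32 of the 51 members the gap between the Ctrl-MI hearts was larger than the difference between the group means (62.7%), close to the 60.4% of all probes. The gaps between hearts share arrays across all genes and were not tested.

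**Figure D5:**
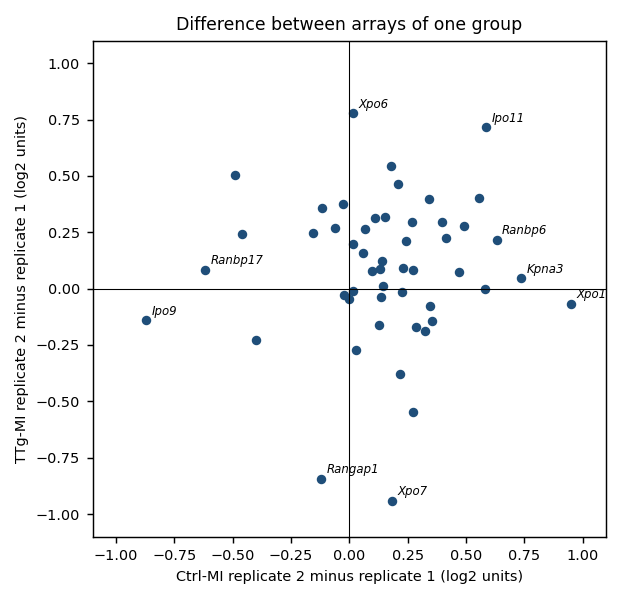
Difference between the hearts of each group, replicate 2 minus replicate 1 in log2 units, for Ctrl-MI (horizontal axis) and TTg-MI (vertical axis), 1 point per member. Of 51 points, 39 lie right of the zero line, with Xpo1 farthest at 0.95, while Xpo7 and Rangap1 have the lowest TTg-MI values at -0.94 and -0.84.

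Other genes of the pore and of transport, whose symbols fall outside the rule, were read from a list of 26, of which 19 were measured. At an unadjusted p under 0.05, 0 of the 19 passed limma in either direction, against 8.25% of all probes, so this count says little. The median difference was -0.03. Cse1l, the exportin that returns importin alpha to the cytoplasm, read 9.88 ± 0.32 in Ctrl-MI and 10.11 ± 0.25 in TTg-MI (SD, n = 2 each), a difference of 0.23 (SE 0.23). Ndc1, a membrane anchor of the pore, differed by 0.33 (SE 0.18), Sec13, a Y complex protein shared with secretory vesicles, by -0.23 (SE 0.15), and Eny2, of the messenger RNA export complex, by 0.27 (SE 0.18). Of 14 measured genes of the nuclear envelope and lamina, 1 had an unadjusted p under 0.05, where 8.25% of all probes did, so this count is near the background. The gene was Lmna, the gene of lamins A and C, with a mean of 11.09 ± 0.22 in Ctrl-MI against 10.46 ± 0.10 in TTg-MI (SD, n = 2 each), a difference of -0.63 (SE 0.18, unadjusted p = 0.0140, adjusted p = 0.546 in limma). The B-type lamin gene Lmnb1 differed by 0.21 (SE 0.17).

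Kpna2 is often read as a gene of dividing cells, so proliferation genes are given beside it. Of 5 measured markers of proliferating cells 0 had an unadjusted p under 0.05, against 8.25% of all probes, and their median difference was -0.37. Without overlap 2 of them (Mki67 and Top2a) were lower and 1 (Cdk1) higher. Of all probes, 18.7% and 19.4% were. Mki67 differed by -0.61 (SE 0.27) and Top2a by -0.37 (SE 0.16), both with a lower mean in TTg-MI. Ube2c differed by -0.51 (SE 0.38), with 7.35 on Ctrl-MI replicate 1 and 6.20 to 6.34 on the other arrays. Birc5 had a higher mean, with a difference of 0.15 (SE 0.32), as did Cdk1, which never reached the lower quartile. The summed level of the 5 was 9.35 and 8.64 in Ctrl-MI and 8.76 and 8.72 in TTg-MI. Of 11 measured spindle factors that Ran regulates in mitosis, 0 had an unadjusted p under 0.05, against 8.25% of all probes. Of these factors 6 had a higher mean and 5 a lower one, and the median difference was 0.02. Tpx2, the best known of these cargoes of importin alpha, differed by -0.22 (SE 0.17), Nusap1 by -0.51 (SE 0.27) and Haus6 by -0.17 (SE 0.15). Hmmr differed by 0.11 (SE 0.17) and Aurka by 0.09 (SE 0.17). Of the 11 factors, 2 (Tpx2 and Haus6) were lower and 0 higher without overlap. Several of these genes lay near the lower quartile, the guide to background. Tpx2 read 5.57 to 5.97, Nusap1 and Anln reached the lower quartile on 3 arrays, Kif14 on 1 and Kif2c on 0. Differences of genes this dim carry little weight.

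Markers of other cells also differed between the arrays. All 4 measured fibroblast and all 4 measured macrophage markers were lower in the TTg-MI hearts without overlap. Of all probes, 18.7% were lower and 19.4% higher without overlap. The fibroblast sum was 19.26 and 18.61 in Ctrl-MI and 18.48 and 17.89 in TTg-MI, and the macrophage sum 12.56 and 11.26 in Ctrl-MI and 10.85 and 10.32 in TTg-MI. The fibroblast sum was almost that of Dcn alone, at 19.24, 18.59, 18.46 and 17.88. Kpna2 had the reverse order of both sums over the 4 arrays. Ryr2, added after its values were seen, had the same order as Kpna2, as did Actn2, whose arrays all read 18.91 or 18.92. The other cardiomyocyte markers, Myh6, Tnnt2 and Atp2a2, had different orders. How many probes of the array share the order of Kpna2 was not counted, so the match is no result about Kpna2. Bmp10, an atrial growth factor gene and the 1 probe of the whole array past the adjusted threshold (adjusted p = 0.00489 in limma), read 5.31 and 5.40 in Ctrl-MI and 12.38 and 11.82 in TTg-MI. Of 5 atrial markers 2, Bmp10 and Myl7, were higher without overlap, with a sum of 20.04 and 19.90 in Ctrl-MI and 20.07 and 18.97 in TTg-MI, set mostly by Nppa. Of 5 endothelial markers 2 were higher without overlap and 1 lower, with a sum of 15.12 to 15.16 in Ctrl-MI and 15.14 to 15.61 in TTg-MI. For smooth muscle and pericytes 1 of 5 markers was lower without overlap, for T cells 2 of 3 and for B and plasma cells 3 of 3. Cd3g and Ms4a1 reached the lower quartile on 2 arrays each, and Cd3e and Cd2 on 3 each, so their differences carry little weight. Single T cell genes read 5.19 to 5.96, below the sum of their list. The smooth muscle, T cell and B and plasma cell sums ran from 13.88 to 14.32, 7.27 to 7.34 and 8.95 to 9.06 in Ctrl-MI. In TTg-MI these sums ran from 13.88 to 14.38, 7.02 to 7.04 and 7.31 to 7.32. Jchain of plasma cells set most of the last sum in Ctrl-MI, at 8.72 and 8.51. In TTg-MI it read 5.85 and 6.13, level with Cd79a at 5.92 and 5.66. Whether the cell makeup of the hearts has a part in the Kpna2 difference was not tested.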

How the data were processed

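Gene expression was measured in the whole hearts of 4 mice on 1-colour arrays. The deposited values were taken as log2 values; the log base was inferred from their range. The submitters' processing notes name Affymetrix Expression Console 1.4 as the tool behind them; how it normalized and summarized the arrays was not given in the sources used here. Deposited values entered the tests with no filter.

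TTg-MI minus Ctrl-MI was fitted for each probe by limma (version 3.58.1, two-sided, R 4.3.3), and p-values were adjusted by Benjamini-Hochberg over the 22206 probes, with 0.05 as the threshold. The fit had 2 residual and 3.56 prior degrees of freedom, and was tested on simulated data. For arrays, their number limits the precision.

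Symbols came from the platform annotation; 2634 probes were unnamed, and matching all 51 members by Entrez identifier to the RefSeq table of GRCm38.p6 changed 0 symbols. Of 58 genes written into role groups, 7 were not analysed here. The members and lists were chosen with earlier results of these data known, among them that Kpna2 was higher in TTg-MI. Values by array are given for Ran, Rcc1, Rangap1, Kpna2, Kpnb1 and Xpo1, for up to 8 members per direction with the smallest p and no overlap, and for the largest difference in each role group; Ryr2, Birc5, Hmmr, Aurka, Kpna6, Kpna3, Xpo6, Ipo9 and the single high or low arrays of Nup85, Nup160 and Ranbp17 were added after their values were seen. Other lists give up to 4 genes of smallest p, with Cse1l and Tpx2. Lower quartiles served as a guide to background.

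Alternatives tried were the replicate number as a block, an ordinary linear model, a trend and robust prior, median centring, quantile normalization, leaving dim probes out, the mean of a symbol's probes, 1 probe per symbol, an adjusted threshold of 0.1, and leaving out each array. Medians without Kpna2 and without dim members and differences without each array for the remaining members were added after seeing the data.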

Additional observations from a re-analysis of the deposited data

How the results depend on the processing

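The number of members passing the adjusted threshold was 0 under quantile normalization, median centring, the filter on dim probes, the trend and robust prior, the ordinary linear model, the replicate block, 1 probe per symbol, the mean of a symbol's probes and the threshold of 0.1, and 0 to 1 in the fits with 1 array fewer, the 1 being Kpna2 without Ctrl-MI replicate 2. Members higher at an unadjusted p under 0.05 numbered 2 with the trend and robust prior and with the replicate block (Kpna2 and Ranbp6), 3 with the ordinary linear model (Kpna2, Nup210 and Nup62cl), and 1 to 2 without single arrays. Members lower at that level numbered 1 with the ordinary linear model (Nup133) and 0 to 3 without single arrays (Kpna3, Nup160 and Xpo1 without Ctrl-MI replicate 1; Nup85, Rangap1 and Xpo7 without TTg-MI replicate 1; Ipo9 without Ctrl-MI replicate 2). Members without overlap of the groups numbered 12 to 26 higher and 9 to 16 lower without single arrays, where fewer arrays make overlap rarer. For these counts and those at an unadjusted p, the shares of all probes under the same alternatives were not counted. The counts are thus no result about the set. The members' median stayed between -0.08 and 0.06 in all alternatives.

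No label used here says whether same-numbered arrays share more than a number, and the correlation of their deviations was 0.16. With the replicate block the adjusted p of Kpna2 in limma was 0.0615, and 7 probes in all were called against 1 without it. Of the 19 named members with a difference, 14 kept their sign in every alternative and 5 did not. Many members were named because their groups did not overlap, and such members cannot change sign when 1 array is left out. The 14 are thus no measure of stability. Xpo1 was 0.0358 after quantile normalization and -0.49 to 0.46 without single arrays. Without single arrays Rangap1 ranged from -0.61 to 0.23, Nup54 from -0.41 to 0.0514, Ranbp2 from -0.0547 to 0.50 and Xpo7 from -0.73 to 0.21; apart from the fewer arrays, the cause was not tested.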
